A study of Caenorhabditis elegans with 12 samples.

Results

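Nuclear hormone receptor genes of the nematode Caenorhabditis elegans, the genes named nhr, were read in whole larvae of 4 strains. The rule for members uses the gene annotation and level, with no fold or test: protein-coding genes whose WormBase symbol starts with nhr- and that reached 1 TPM (a length-corrected share of a library's transcripts) in at least 3 of the 12 libraries. Of 269 such genes in the annotation, 186 met the rule, among 15230 genes of all kinds that passed the same minimum and 46926 in the table. The other 83 stayed below it. The highest of these, nhr-216, averaged 0.739 TPM, and 12 were listed at 0 TPM in every library. Just inside the minimum were nhr-259 and nhr-270, with exactly 3 libraries at 1 TPM or more. No member reached 1 TPM in 1 strain alone.

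Compared were the wild type N2, the single mutants nuo-6(qm200) and itr-1(sa73), and the strain nuo-6; itr-1 that carries both, called the double mutant here, each in 3 biological replicates. All were cultures of about 1000 animals grown to the last larval stage (L4). N2 and mutants alike ate Escherichia coli HT115 that carried an empty vector. NUO-6 is a subunit of mitochondrial complex I, and ITR-1 is the inositol trisphosphate receptor, the channel that releases calcium from the endoplasmic reticulum. Each allele is known to change 1 amino acid, and each genotype is 1 strain, so a second mutation carried by a strain cannot be told apart from the named allele.

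Nuclear hormone receptors are transcription factors with a zinc-finger domain that binds DNA and a domain that can bind small lipophilic ligands, such as steroids and fatty acids. Nematodes carry many more of them than insects or vertebrates, mostly from expansion of an ancestor related to the vertebrate receptor HNF4, and most of the expanded genes lie on chromosome V. Well-studied members control fat oxidation and desaturation, moulting, the use of propionate, and the response to toxins and to failing mitochondria. Most of the others have no assigned function.

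Values are TPM, and changes are log2 folds ± SE of log2(TPM + 1), a scale on which low genes appear to change less than they do. Adjusted p is limma's, two-sided, with Benjamini-Hochberg adjustment over all 15230 genes, and a gene rose or fell where it was under 0.05. Read depth is unknown, because TPM keeps none. Per library, 13879 to 14902 genes reached 1 TPM. Levels of itr-1 RNA were 21.2 ± 3.18 (N2), 27.1 ± 4.2 (itr-1), 30.3 ± 2.74 (nuo-6) and 33.7 ± 1.21 TPM (double mutant; SD, n = 3), and those of nuo-6 RNA 324 ± 7.18, 280 ± 13.5, 392 ± 15.1 and 309 ± 19.3 TPM. With missense alleles these levels do not test the strain labels. A stage score averaged log2(TPM + 1) over 15 oocyte genes. It was 3.45 to 4.52 in N2 libraries, 5.18 to 6.42 (itr-1), 4.92 to 5.17 (nuo-6) and 4.66 to 6.11 (double mutant), so N2 lay below every mutant library. Summed neuronal markers (4 genes) were 240.3 to 252 TPM (N2), 274 to 289 (itr-1), 337 to 376 (nuo-6) and 371 to 388 (double mutant). Summed intestinal markers (4 genes) were 392 to 437, 546 to 564, 410.2 to 480.1 and 531 to 612 TPM in that order. In itr-1 against N2 only ifb-2 of these rose (0.81 ± 0.08). The others did not pass (ges-1 -0.24 ± 0.10, elt-2 -0.05 ± 0.17, vha-6 0.22 ± 0.10). Summed germ line markers (3 genes) were 374 to 414, 356 to 406, 268 to 275 and 242 to 305 TPM. In nuo-6 against N2, pgl-1 (-0.67 ± 0.10) and glh-1 (-0.50 ± 0.07) were lower. The third marker, glp-1, did not pass there (0.20 ± 0.15, adjusted p = 0.275). Summed muscle markers (3 genes) were 1908 to 2077, 1739.6 to 1789, 1889 to 1935 and 1519 to 1559 TPM, and hypodermal markers (3 genes) 197 to 240.1, 129 to 182, 176 to 206 and 175 to 208 TPM. Hypodermal markers went both ways in itr-1 against N2: dpy-7 fell (-0.67 ± 0.19), elt-3 rose (0.61 ± 0.09), and lin-26 did not pass (-0.02 ± 0.08). The defining markers of all 5 tissues were detected. The part of stage and tissue in the results below was not tested beyond the values given with the stage score in the model. In whole animals, fewer cells of a type and less RNA per cell cannot be told apart.

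In TPM as deposited, the family as a whole was lowest in N2 and highest in the double mutant. The 186 members summed to 1058, 1085 and 1095 TPM in the N2 libraries, 1142, 1250.2 and 1312 in itr-1, 1561, 1573 and 1581 in nuo-6, and 1722, 1859 and 1997 in the double mutant. The libraries of the 4 strains did not overlap in this sum. The mean was 1079 ± 19 TPM in N2, 1235 ± 86.4 in itr-1, 1572 ± 10.1 in nuo-6 and 1859 ± 138 in the double mutant (SD, n = 3). Median-of-ratios scaling, an alternative used below, divides each library by a factor. The factors were 0.862 to 0.928 (N2), 0.982 to 1.05 (itr-1), 1.02 to 1.04 (nuo-6) and 1.06 to 1.12 (double mutant). Scaled in this way, N2 and itr-1 overlap in the sum, and so do nuo-6 and the double mutant. Members at 1 TPM or more numbered 158 to 164 (N2), 164 to 174 (itr-1), 173 to 176 (nuo-6) and 181 to 183 (double mutant). Counts over all genes were 13879 to 14040, 14406 to 14558, 14639 to 14680 and 14712 to 14902 in that order, climbing likewise.

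**Figure D1:**
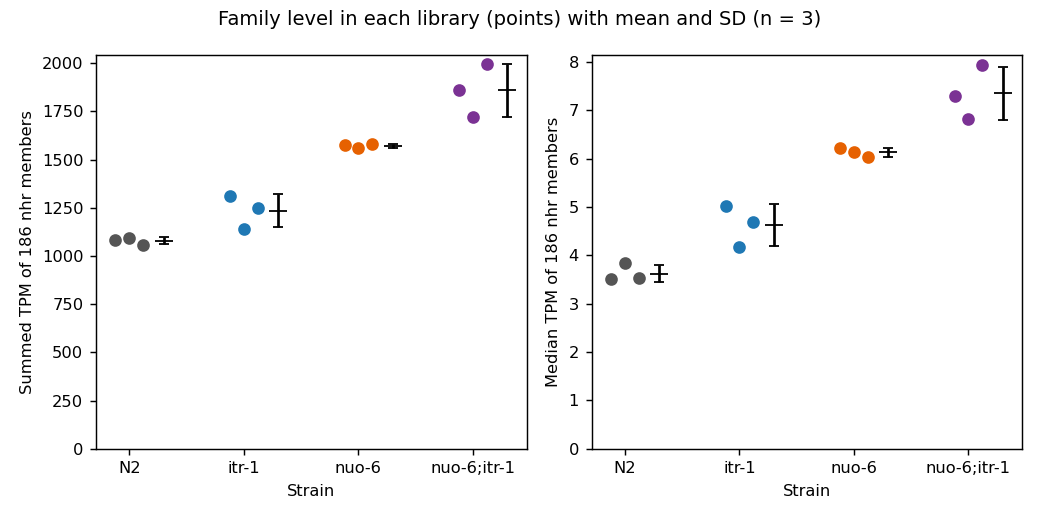
Summed TPM (left) and median TPM (right) of the 186 nhr members in each of the 12 libraries, grouped by strain on the horizontal axis. Points are libraries, and the horizontal dash with bars gives the mean and SD of 3 libraries. In TPM as deposited, sums rose from 1079 ± 19 TPM in N2 to 1859 ± 138 in the double mutant without overlap between strains.

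The first comparison, nuo-6 against N2, asks what differs when complex I is impaired. Of the 186 members, 123 rose and 3 fell, that is 66.1% up and 1.61% down. Over all genes tested, 37.3% rose and 15% fell (52.3% in either direction). The median log2 fold was 0.44 for members and 0.18 for all genes. Rises of more than 2-fold numbered 21 of 186 members and 1331 of 15230 genes. On plain TPM, every nuo-6 library lay above every N2 library for 139 members and below for 4, against 46.1% and 19.9% of all genes. In double mutant against itr-1, the same mutation read in the other background, 122 members rose and 4 fell (65.6% and 2.15%), where 29.3% of all genes rose and 16.4% fell (45.7% either way). The medians were 0.45 and 0.09, and 25 of 186 members and 718 of 15230 genes rose more than 2-fold. Libraries did not overlap for 133 higher and 6 lower members, against 33.8% and 17.6% of all genes.

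These 2 comparisons share no library. Members higher in both numbered 102, which is 82.9% of the 123 and 83.6% of the 122. For all genes the shared 3418 were 60.2% and 76.6% of their lists. The 2 members lower in both were nhr-234 and nhr-235. Across the 186 members the log2 folds of the 2 comparisons had a Pearson correlation of 0.834 (0.574 across all genes), as a description, since the libraries of a comparison share their normalization and genes are not independent.

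The itr-1 mutation moved fewer members. In itr-1 against N2, 64 rose and 7 fell (34.4% and 3.76%), beside 29.0% and 11.1% of all genes (40.1% either way), so the share of changed members, 38.2%, lay close to the background. The median log2 fold was 0.21 for members and 0.14 for all genes, and 2 members rose more than 2-fold. Libraries did not overlap for 88 higher and 9 lower members, against 36.3% and 14.5% of all genes. In double mutant against nuo-6, 41 members rose and 1 fell (22% and 0.538%), beside 9.99% and 5.46% of all genes (15.4% either way). The medians were 0.22 and 0.07. Here 93 members were higher and 5 lower without overlap, against 27.2% and 12.5% of all genes. These comparisons share no library either, and 26 members rose in both, 40.6% of the 64 and 63.4% of the 41, where the 845 genes of all kinds were 19.1% and 55.5%. Across the members their folds correlated at 0.524 (0.274 across all genes).

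The members' median lay above that of all genes under each scaling, while the direction of the calls in itr-1 against N2 moved with the scaling, for members and for all genes. Median-of-ratios scaling moved the median of all genes from 0.18 to 0.00 in nuo-6 against N2 and from 0.14 to -0.01 in itr-1 against N2. The members' median minus that of all genes was 0.26 as deposited, 0.29 with median-of-ratios scaling and 0.19 with quantile normalization in nuo-6 against N2, and 0.36, 0.37 and 0.36 in double mutant against itr-1. For itr-1 against N2 it was 0.07, 0.09 and 0.01. Rises made up 97.6% of the changed members in nuo-6 against N2, 93.1% with median-of-ratios scaling and 84.5% after quantile normalization, beside 71.2%, 48.6% and 42.5% of all changed genes. For itr-1 against N2 they made up 90.1% as deposited, 69.8% with median-of-ratios scaling (30 rises, 13 falls) and 40% after quantile normalization (14 rises, 21 falls), beside 72.2%, 43.1% and 41.2% of all changed genes. With the stage score as a covariate, nuo-6 against N2 counted 128 rises and 2 falls, and itr-1 against N2 counted 30 and 1. Rises in nuo-6 against N2 were then 68.8% of members and 32.1% of all genes. Rises in itr-1 against N2 were then 16.1% of members and 9.33% of all genes, and the medians 0.34 and 0.04, a difference of 0.30.

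**Figure D2:**
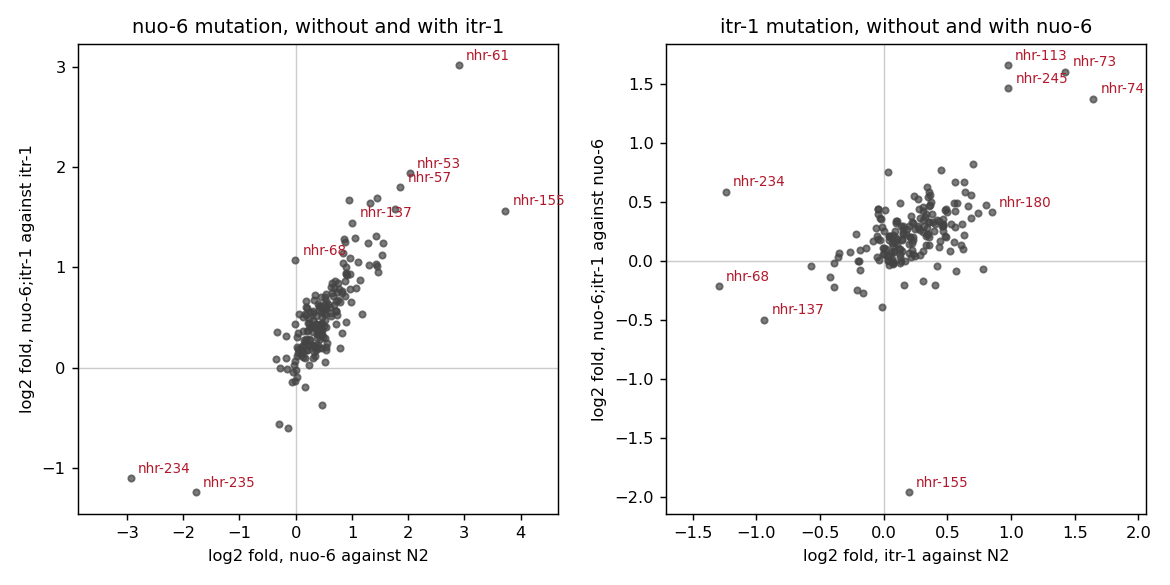
Each point is 1 of the 186 members. Left, log2 fold of the nuo-6 mutation in the wild-type background (horizontal) against the same mutation on itr-1 (vertical); right, the itr-1 mutation without (horizontal) and with nuo-6 (vertical), with the members named in the text labelled. On the left most points lie at the upper right, with nhr-61 near 3 on both axes, and nhr-155 stands alone at the bottom of the right panel at -1.96.

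The largest named rise was that of nhr-155 in nuo-6 against N2 and that of nhr-61 in double mutant against itr-1. The gene with the widest change was nhr-155 (WBGene00015758, chromosome V, 539460 to 541485, WBcel235), which has no role assigned here. Its TPM was 0.109, 0.059 and 0.083 in N2, 0.327, 0.219 and 0.182 in itr-1, 11.1, 13.9 and 15.2 in nuo-6, and 2.26, 3 and 2.82 in the double mutant. It was thus near 0 without the nuo-6 mutation, highest in nuo-6, and at a middle level in the double mutant, with no overlap between those strains. The log2 fold was 3.72 ± 0.12 in nuo-6 against N2 (adjusted p = 1e-08) and 1.57 ± 0.12 in double mutant against itr-1 (adjusted p = 5.8e-06). From nuo-6 to the double mutant nhr-155 fell by 1.96 (SE 0.12, adjusted p = 4.56e-06), and it was the only member to fall in that comparison.

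The next was nhr-61 (WBGene00003651, chromosome II, 14816136 to 14818543). It stood at 4.05, 4.8 and 4.59 TPM in N2 and 7.07, 5.16 and 5.27 in itr-1, and at 43.8, 39.6 and 36.2 TPM in nuo-6 and 55.2, 42.6 and 66.5 in the double mutant. Both strains with the nuo-6 mutation lay far above both without it. The folds were 2.90 ± 0.16 (adjusted p = 2.42e-07) in nuo-6 against N2 and 3.02 ± 0.16 (adjusted p = 4.69e-07) in double mutant against itr-1, while itr-1 against N2 gave 0.31 ± 0.16 and did not pass. The gene overlaps W01D2.1 on the opposite strand, which is abundant and went from 5541 TPM in N2 to 4387 in nuo-6, the other way from nhr-61. The libraries were stranded, but whether the counting used strand is not given.

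The receptor gene nhr-53 (chromosome V, 15700606 to 15702363) followed the same pattern. Its TPM was 2.36, 2.22 and 1.34 in N2, 1.69, 2.34 and 2.29 in itr-1, 9.54, 12.8 and 10.8 in nuo-6, and 9.52, 11.3 and 12 in the double mutant. The 6 libraries with the nuo-6 mutation lay above the 6 without it, and within each set the strains overlapped. The folds were 2.03 ± 0.16 and 1.94 ± 0.16 for nuo-6 without and with itr-1 (adjusted p = 3.31e-06 and 8.71e-06), and 0.07 and -0.01 for itr-1 without and with nuo-6, neither of which passed. Also among the 6 largest rises of nuo-6 against N2 were nhr-115 (4.16 ± 0.226 to 16.7 ± 2.4 TPM, log2 fold 1.77 ± 0.15) and nhr-152 (1.07 ± 0.296 to 5.06 ± 0.746 TPM, 1.55 ± 0.12). The opposite-strand partner of nhr-152, C12D5.9, went from 10.6 to 3.61 TPM.

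Receptors linked to mitochondria and hypoxia rose in all 4 comparisons. Transcription of nhr-57 is induced by HIF-1, the hypoxia factor, and serves as its reporter. It read 1.46, 1.98 and 1.98 TPM in N2, 3.27, 3.08 and 2.94 in itr-1, 8.02, 10.3 and 9.22 in nuo-6, and 14.6, 10.6 and 14.9 in the double mutant. The order was N2, itr-1, nuo-6, double mutant with no overlap. Its folds were 1.86 ± 0.14 in nuo-6 against N2 (adjusted p = 2.23e-06), 1.80 ± 0.14 in double mutant against itr-1 (adjusted p = 4.99e-06), 0.55 ± 0.14 in itr-1 against N2 (adjusted p = 0.0106) and 0.49 ± 0.14 in double mutant against nuo-6 (adjusted p = 0.0362). The last call was lost with either other scaling (adjusted p = 0.0874 and 0.082) and when replicate 1 or 3 of nuo-6 or of the double mutant was left out (0.101 to 0.131). The call of nhr-57 in itr-1 against N2 was lost with quantile normalization (adjusted p = 0.142) and with the stage score in the model (0.087). The gene overlaps lgc-1 on the same strand, at 0.157 TPM in N2 and 1.05 in nuo-6. Expression of detoxification genes under mitochondrial dysfunction is known to require nhr-45. It read 10.7, 10.9 and 10.7 TPM in N2, 15.5, 13.4 and 13.9 in itr-1, 17.7, 14.7 and 16 in nuo-6, and 22.3, 21.6 and 25.9 in the double mutant. N2 lay lowest and the double mutant highest, with itr-1 and nuo-6 overlapping. It rose by 0.54 ± 0.09, 0.37 ± 0.09, 0.50 ± 0.09 and 0.67 ± 0.09 in, by turns, nuo-6 and itr-1 against N2 and the double mutant against nuo-6 and against itr-1. The rise of nhr-45 in itr-1 against N2 was lost under median-of-ratios scaling (adjusted p = 0.105).

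Most receptors for xenobiotics and defence rose with the nuo-6 mutation, as did most members of the whole family. Of 5 listed, 4 rose and 0 fell in nuo-6 against N2 (median 0.53, against 0.18 over all genes), 3 and 0 in double mutant against itr-1 (median 0.70 against 0.09), 1 and 0 in double mutant against nuo-6, and 0 and 0 in itr-1 against N2. In that order 37.3%, 29.3%, 9.99% and 29.0% of all genes rose, and 66.1%, 65.6%, 22% and 34.4% of all members. With median-of-ratios scaling nuo-6 against N2 counted 3 rises and 1 fall. NHR-8, related to the vertebrate sterol and xenobiotic receptors, acts in toxin resistance and cholesterol handling. Its transcript read 13.3, 12.1 and 15.7 TPM in N2, 14.5, 13 and 13.8 in itr-1, 25.6, 26.4 and 24.9 in nuo-6, and 37, 31.7 and 36.4 in the double mutant. N2 and itr-1 overlapped, nuo-6 lay above both, and the double mutant above nuo-6. The folds were 0.87 ± 0.10 (adjusted p = 3.09e-05) in nuo-6 against N2, 1.29 ± 0.10 (adjusted p = 4e-06) in double mutant against itr-1 and 0.43 ± 0.10 (adjusted p = 0.0125) in double mutant against nuo-6. The last call of nhr-8 was lost under median-of-ratios scaling (adjusted p = 0.0539) and without nuo-6 replicate 3 (0.0554) or double-mutant replicate 1 (0.0579). On the opposite strand nhr-8 overlaps F33D4.6, which went from 400.03 TPM in N2 to 162 in nuo-6. NHR-176, which induces cytochrome P450 genes when thiabendazole is taken up, had its transcript at 5.9 ± 0.986 TPM in N2 and 10.6 ± 0.319 in nuo-6 (0.76 ± 0.10). The transcript of NHR-14, a regulator of iron uptake and immunity, rose by 0.48 ± 0.13, a call that median-of-ratios scaling ended (adjusted p = 0.0906), and nhr-28 rose by 0.53 ± 0.09. NHR-86, a receptor of innate immunity that senses a pathogen metabolite, had its gene at 17.4 ± 1.88 TPM in N2 and 17.1 ± 0.543 in nuo-6 (-0.01 ± 0.09).

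**Figure D3:**
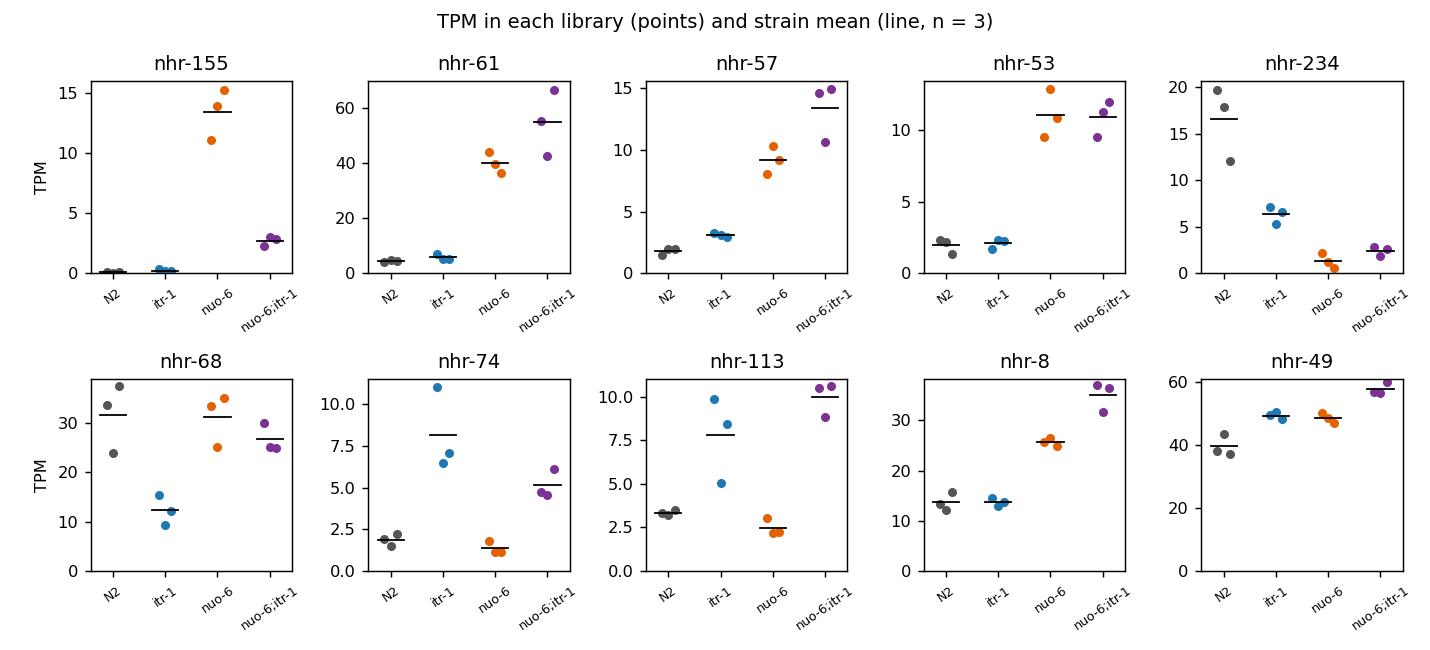
TPM of 10 named members in each library (points) and the mean of each strain (line, n = 3), with strains on the horizontal axis and a separate TPM axis from 0 for each gene. The genes nhr-61 and nhr-53 are high in both strains with the nuo-6 mutation, nhr-74 and nhr-113 in both with the itr-1 mutation, nhr-155 is highest in nuo-6, and nhr-68 is lowest in itr-1.

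Receptors of lipid metabolism rose by small steps. Of 8 listed, 5 rose and 0 fell in nuo-6 against N2 (median 0.30), 5 and 0 in itr-1 against N2 (0.28), and 4 and 0 in each comparison with the double mutant (0.26 in both). Of all genes, 37.3% rose in nuo-6 against N2 (median 0.18), 29.0% in itr-1 against N2 (0.14), 9.99% in double mutant against nuo-6 (0.07) and 29.3% in double mutant against itr-1 (0.09). With median-of-ratios scaling these became 1 and 0 in nuo-6 against N2 and 1 and 1 in itr-1 against N2. NHR-49 works like the vertebrate fatty acid receptor PPAR-alpha in the control of fat oxidation and desaturation. Its transcript, second in level in the family at 48.7 TPM over all libraries, read 38.1, 43.6 and 37.1 TPM in N2, 49.3, 50.3 and 48 in itr-1, 50, 48.6 and 46.9 in nuo-6, and 56.8, 56.4 and 59.8 in the double mutant. N2 lay lowest, itr-1 and nuo-6 overlapped, and the double mutant lay highest. All 4 folds passed, at 0.29, 0.31, 0.25 and 0.22 (SE 0.06 each), and with median-of-ratios scaling none did (adjusted p = 0.262, 0.101, 0.109 and 0.155 for nhr-49 in the order given for nhr-45). The last 2 calls of nhr-49 were also lost when single libraries were left out, against nuo-6 without nuo-6 replicate 2 or 3 or double-mutant replicate 1 or 3 (adjusted p = 0.0695 to 0.107), and against itr-1 without double-mutant replicate 3 (0.058). NHR-80, which acts with NHR-49 on the stearoyl-CoA desaturases, had its gene nhr-80 rise by 0.31 to 0.38 (SE 0.11 each) in all 4, with none passing under that scaling (adjusted p = 0.0639 to 0.353). Each call of nhr-80 was also lost when single libraries were left out, namely N2 replicate 1 or 3 or any nuo-6 library in nuo-6 against N2 (adjusted p = 0.0516 to 0.139), replicate 1 or 3 of N2 or itr-1 in itr-1 against N2 (0.0822 to 0.141), any nuo-6 library or double-mutant replicate 1 or 3 in double mutant against nuo-6 (0.0698 to 0.142), and itr-1 replicate 2 or double-mutant replicate 1 or 3 in double mutant against itr-1 (0.0654 to 0.0684). NHR-66, which represses sphingolipid genes with NHR-49, had its transcript at 13.4 ± 1.08 TPM in N2, 19 ± 2.27 in itr-1 and 18.1 ± 0.543 in nuo-6. The rises of nhr-66 were 0.47 ± 0.09 for itr-1, which did not pass with the stage score in the model (adjusted p = 0.314), and 0.41 ± 0.09 for nuo-6. NHR-62 is required for longevity under diet restriction. The fold of nhr-62 was 0.45 ± 0.15 in nuo-6 against N2 and 0.71 ± 0.15 in double mutant against itr-1. The first was lost under median-of-ratios scaling (adjusted p = 0.115) and without N2 replicate 1 (0.0813) or 2 (0.107) or nuo-6 replicate 2 (0.112). NHR-64, a regulator of fat storage, had rises of 0.36 ± 0.11 and 0.44 ± 0.11 in the same 2 comparisons. The first call of nhr-64 was lost under median-of-ratios scaling (adjusted p = 0.237) and without N2 replicate 3 (0.0871) or nuo-6 replicate 1 (0.0723). The gene of NHR-76, which acts in serotonin-driven fat loss, read 5.35 ± 0.499, 4.5 ± 0.713, 5.39 ± 0.537 and 4.44 ± 0.996 TPM in N2, itr-1, nuo-6 and the double mutant, and passed in none. The gene nhr-13 passed in both comparisons of itr-1 (0.24 ± 0.08 and 0.27 ± 0.08), and after quantile normalization its fold in itr-1 against N2 was -0.0044 (adjusted p = 0.972). Both calls of nhr-13 were lost under median-of-ratios scaling (adjusted p = 0.342 and 0.124), the first without N2 replicate 1 or 3 or any itr-1 library (0.0608 to 0.137) and the second without any 1 of its 6 libraries (0.0725 to 0.121).

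Known NHR-49 targets did not move one way. Of 10, 5 rose and 4 fell in nuo-6 against N2, 3 and 0 in itr-1 against N2, 2 and 1 in double mutant against nuo-6, and 4 and 3 in double mutant against itr-1. The medians were 0.52, 0.01, 0.16 and 0.06, beside 0.18, 0.14, 0.07 and 0.09 over all genes, of which 37.3%, 29.0%, 9.99% and 29.3% rose and 15%, 11.1%, 5.46% and 16.4% fell. The acyl-CoA synthetase gene acs-2 read 58.9, 35.2 and 18.2 TPM in N2 and 300.1, 222 and 175 in nuo-6, a rise of 2.72 ± 0.34 (adjusted p = 6.63e-05). The flavin monooxygenase gene fmo-2 rose from 0.455 ± 0.0439 to 16.9 ± 3.66 TPM (3.60 ± 0.21). Desaturase gene fat-7, at 26.6 ± 4.04 TPM in N2, fell to 3.43 ± 0.769 (-2.64 ± 0.17), and the carnitine palmitoyltransferase gene cpt-5 fell from 12.3 ± 2.08 to 4.17 ± 0.717 (-1.36 ± 0.16). Between N2 and itr-1, the palmitoyl-CoA desaturase gene fat-5 rose from 2.54 ± 0.908 to 34.1 ± 14.6 TPM (3.25 ± 0.34), while fat-7 stood at 0.09 ± 0.17.

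Of 3 receptors of diet and propionate, 1 fell and 0 rose in itr-1 against N2, where 11.1% of all genes fell. The one that fell was nhr-68. NHR-10 and NHR-68 act in sequence to switch on the propionate shunt, the breakdown route used when vitamin B12 is scarce. The transcript of nhr-68 (chromosome V, 11573440 to 11575709) read 33.6, 23.9 and 37.6 TPM in N2, 15.5, 9.43 and 12.1 in itr-1, 33.5, 25.2 and 35.1 in nuo-6, and 29.9, 25.1 and 25 in the double mutant. The itr-1 libraries lay below all others, and N2, nuo-6 and the double mutant overlapped. The gene nhr-68 fell by 1.29 (SE 0.20, adjusted p = 0.000748) in itr-1 against N2, and in double mutant against itr-1 it rose by 1.07 ± 0.20 (adjusted p = 0.0015). With the stage score in the model the fall of nhr-68 did not pass (adjusted p = 0.0884). The 5 listed propionate-shunt genes all fell in itr-1 against N2, and all 5 rose in double mutant against itr-1. From nuo-6 to the double mutant 4 fell and 0 rose, and in nuo-6 against N2 2 rose and 0 fell. Of all genes 11.1% fell in itr-1 against N2 and 29.3% rose in double mutant against itr-1. In double mutant against nuo-6 5.46% fell, and in nuo-6 against N2 37.3% rose. The acyl-CoA dehydrogenase gene acdh-1 read 551, 262 and 568 TPM in N2, 50.9, 29.7 and 41.5 in itr-1, 674, 397 and 612 in nuo-6, and 255, 268 and 180 in the double mutant. It fell by 3.42 (SE 0.32, adjusted p = 2.93e-05) in itr-1 against N2. The shunt genes hphd-1 and ech-6 fell by 1.98 (SE 0.15) and 0.99 (SE 0.10). In contrast with nhr-68, nhr-10 read 31.3, 30.2 and 22.5 TPM in N2 and 22.2, 26.4 and 25.3 in itr-1, which overlap (-0.17 ± 0.11, adjusted p = 0.261). It rose by 0.44 ± 0.11 in nuo-6 against N2, a call lost under median-of-ratios scaling (adjusted p = 0.131). The rise of nhr-10 in double mutant against itr-1, 0.33 ± 0.11 (adjusted p = 0.033), was lost under that scaling (0.165) and without replicate 1 or 3 of either strain (0.0541 to 0.113). NHR-114, which protects germ line stem cells on some bacterial diets, had its transcript at 15.5, 15 and 32 TPM in N2 and 22.7, 9.3 and 13.8 in itr-1 and passed in no comparison. The neighbour of nhr-68, nhr-101, fell by 0.39 (SE 0.12, adjusted p = 0.0268) in itr-1 against N2 and rose by 0.87 ± 0.12 in nuo-6 against N2. The fall of nhr-101 did not pass when N2 replicate 1 (adjusted p = 0.101) or 3 (0.0853) or itr-1 replicate 2 (0.0963) was left out.

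Of 5 receptors of moulting and timing, 2 rose and 1 fell in nuo-6 against N2 (median 0.18, against 0.18 over all genes), 3 and 0 in itr-1 against N2 (0.22, against 0.14), 2 and 0 in double mutant against nuo-6 (0.41, against 0.07), and 1 and 0 in double mutant against itr-1 (0.20, against 0.09). Of all genes 37.3%, 29.0%, 9.99% and 29.3% rose. The list includes nhr-8, whose rises, described above, count in every comparison here but itr-1 against N2. NHR-23, the ROR homologue that drives moulting cycles, had its gene at 24.8, 23.3 and 21.5 TPM in N2, 30, 25.8 and 25.8 in itr-1, 24.9, 26.5 and 26.8 in nuo-6, and 28, 29.6 and 29.8 in the double mutant. N2 lay just below the other strains, itr-1 overlapped both nuo-6 and the double mutant, and the double mutant lay above nuo-6. The rise of nhr-23 in itr-1 against N2, 0.22 ± 0.08 (adjusted p = 0.0415), was lost under median-of-ratios scaling (adjusted p = 0.659) and without N2 replicate 2 (0.0739) or 3 (0.146) or itr-1 replicate 1 (0.141). NHR-85, a partner of NHR-23 in timing the lin-4 microRNA, had its gene at 2.89 ± 0.115 TPM in N2, 5.66 ± 1.65 in itr-1, 4.68 ± 0.859 in nuo-6 and 6.59 ± 1.6 in the double mutant (0.74 ± 0.20 and 0.54 ± 0.20 for itr-1 and nuo-6 against N2). The first call of nhr-85 was lost without itr-1 replicate 1 (adjusted p = 0.0548), and the second under median-of-ratios scaling (0.151) and without any N2 library or nuo-6 replicate 2 or 3 (0.077 to 0.139). NHR-25, related to the steroidogenic factor of vertebrates, acts in the epidermis and in moulting. The gene nhr-25 rose in itr-1 against N2 (0.56 ± 0.19) and double mutant against nuo-6 (0.67 ± 0.19), both lost under median-of-ratios scaling (adjusted p = 0.0893 and 0.0626). The first call of nhr-25 was also lost without any N2 library or itr-1 replicate 1 or 3 (adjusted p = 0.0704 to 0.123), and the second without any nuo-6 library or double-mutant replicate 1 or 3 (0.0604 to 0.127). The gene nhr-41, the homologue of an insect receptor of metamorphosis, fell in nuo-6 against N2 from 19.5 ± 1.83 to 15 ± 1.45 TPM (-0.36 ± 0.10, adjusted p = 0.0122), and that call was lost with the stage score in the model (adjusted p = 0.077) and without nuo-6 replicate 2 (0.0503). Of 9 moulting genes that NHR-23 is known to act on or that move with moulting, 1 rose and 6 fell in nuo-6 against N2, and 1 rose and 6 fell in itr-1 against N2 (medians -0.52 and -0.62, where 15% and 11.1% of all genes fell). The rise was mlt-7, a peroxidase that cross-links cuticle collagen, at 14.9 ± 2.3 TPM in N2, 37.4 ± 1.94 in itr-1 and 38.7 ± 3.53 in nuo-6. The fall of mlt-10 was from 272 ± 5.71 to 92.1 ± 11.1 TPM in nuo-6 (-1.56 ± 0.15).

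Receptors of single tissues were called at shares near those of all genes where nuo-6 was compared. Of 6 tested, 2 rose in nuo-6 against N2 (nhr-69, of insulin secretion, 0.55 ± 0.11, and nhr-67, the Tailless homologue of the anchor cell, 0.35 ± 0.11), and 2 in double mutant against itr-1 (nhr-69 and nhr-1), where 37.3% and 29.3% of all genes rose. Both nhr-67 and nhr-1 lost their calls with median-of-ratios scaling (adjusted p = 0.12 and 0.181), nhr-67 also without replicate 2 or 3 of N2 or nuo-6 (0.0543 to 0.0886), and nhr-1 without itr-1 replicate 2 or 3 or double-mutant replicate 1 or 3 (0.0867 to 0.148). In the comparisons of itr-1 0 of 6 passed, beside 29.0% and 9.99% of all genes that rose. The gene nhr-31, of the excretory canal cell, read 27.5 ± 2.24, 35.5 ± 8.58, 28 ± 2.85 and 32.7 ± 4.51 TPM in N2, itr-1, nuo-6 and the double mutant. The muscle receptor gene nhr-40 read 13 ± 1.19, 15.8 ± 1.94, 13.8 ± 0.576 and 17.3 ± 1.48 TPM, and nhr-60, of the epidermal seam cells, 0.924 ± 0.224, 1.02 ± 0.15, 0.717 ± 0.152 and 1.01 ± 0.252. Among members with clear counterparts in other animals, 9 of 11 listed were tested, 5 rose and 1 fell in nuo-6 against N2, and 4 and 0 in itr-1 against N2 (medians 0.31 and 0.29, against 0.18 and 0.14 over all genes, of which 37.3% and 29.0% rose). The NR4A homologue nhr-6, needed for the spermatheca, rose by 0.80 ± 0.25 in nuo-6 against N2, with 7.2, 3.26 and 3.47 TPM in nuo-6 and 2.78, 2.08 and 1.56 in N2. Without nuo-6 replicate 1, the highest, nhr-6 did not pass (adjusted p = 0.0659), nor without N2 replicate 3 (0.0764).

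**Figure D4:**
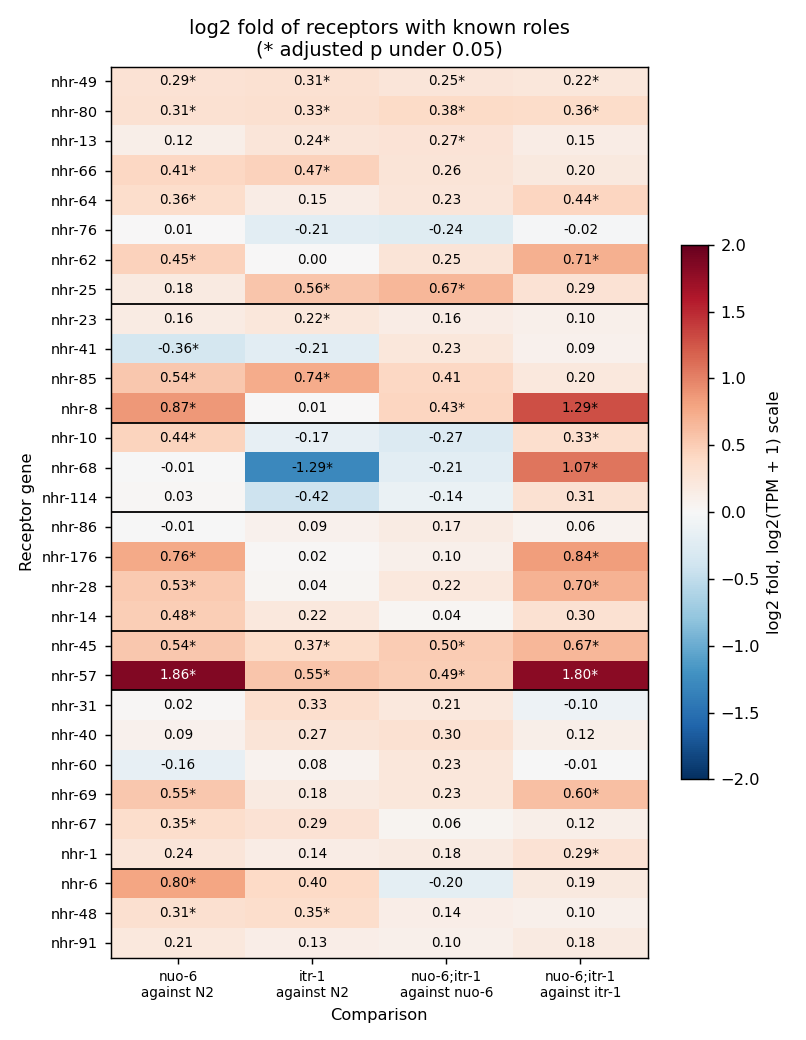
Log2 fold (colour and printed value, log2(TPM + 1) scale) of 30 receptor genes with roles given in the text or counterparts in other animals, in rows, in the 4 comparisons, in columns. Black lines separate, from the top, lipid metabolism (with nhr-25), moulting and timing (with nhr-8), diet and propionate, xenobiotics and defence, mitochondria and hypoxia, single tissues, and other receptors with counterparts in other animals; an asterisk marks an adjusted p under 0.05, and nhr-57 and nhr-8 hold the deepest reds while nhr-68 in itr-1 holds the deepest blue.

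The largest rises of the itr-1 mutation lay close together on chromosome I. The members nhr-74 (11429014 to 11432156), nhr-73 (11433671 to 11436018), nhr-113 (11473218 to 11475662) and nhr-245 (11477744 to 11480071) were the 4 largest rises in both comparisons of itr-1. The level of nhr-74 was 1.92, 1.52 and 2.22 TPM in N2, 11, 6.45 and 7.05 in itr-1, 1.83, 1.14 and 1.13 in nuo-6, and 4.71, 4.58 and 6.11 in the double mutant. All 6 libraries with the itr-1 mutation lay above the 6 without it. The folds of nhr-74 were 1.64 ± 0.19 in itr-1 against N2 (adjusted p = 0.000136) and 1.38 ± 0.19 in double mutant against nuo-6 (adjusted p = 0.00107). For nhr-73 they were 1.43 ± 0.20 and 1.61 ± 0.20, for nhr-113 0.97 ± 0.19 and 1.66 ± 0.19, and for nhr-245 0.98 ± 0.23 and 1.47 ± 0.23. None of these 4 passed in nuo-6 against N2, with folds of -0.29, 0.03, -0.33 and -0.17. In that stretch nhr-259, named for its place, was near the minimum at 0.28 ± 0.251 (N2) and 1.16 ± 0.975 TPM (itr-1) and did not pass. The gene itr-1 itself lies on chromosome IV.

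Other rises in itr-1 against N2 were nhr-180 (2.16 ± 0.264 to 4.68 ± 0.27 TPM, 0.85 ± 0.10) and nhr-7 (1.65 ± 0.328 to 3.6 ± 0.367 TPM, 0.80 ± 0.15), and both also rose in nuo-6 against N2 (1.45 ± 0.10 and 0.98 ± 0.15). The 4 members with the widest summed folds among the 18 called in all 4 comparisons were nhr-57, nhr-178, nhr-210 and nhr-180. The level of nhr-210 was 3.9 ± 0.516 TPM in N2, 5.24 ± 0.476 in itr-1, 12.4 ± 0.995 in nuo-6 and 19.3 ± 2.7 in the double mutant, and that of nhr-178 was 0.294 ± 0.0693, 0.763 ± 0.057, 2.25 ± 0.569 and 4.57 ± 1.09. Both genes climbed in the order N2, itr-1, nuo-6, double mutant. In all, 54 members rose in both single mutants against N2, comparisons that share the N2 libraries, which is 29% of members beside 18.8% of all genes. Called in all 4 comparisons were 9.68% of members and 5.37% of all genes, and 27 members (14.5%, against 24.6% of all genes) were called in none. Against nuo-6, in the double mutant, nhr-142 rose by 0.82 ± 0.22 (adjusted p = 0.0297), and leaving out any 1 of the libraries compared, other than double-mutant replicate 2, ended that call (adjusted p = 0.0727 to 0.107). A rise of nhr-280 in double mutant against itr-1 was 1.67 ± 0.24, from 0.362 ± 0.233 to 3.33 ± 0.697 TPM.

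Falls were few. The gene nhr-234 (chromosome II, 12636678 to 12638491) read 19.7, 18 and 12.1 TPM in N2, 7.14, 5.28 and 6.59 in itr-1, 2.23, 1.27 and 0.576 in nuo-6, and 2.81, 1.83 and 2.65 in the double mutant. N2 lay highest, itr-1 second, and the strains with nuo-6 overlapped at the bottom. It fell by 2.93 (SE 0.25, adjusted p = 5.47e-06) in nuo-6 against N2, by 1.24 (SE 0.25, adjusted p = 0.00388) in itr-1 against N2 and by 1.10 (SE 0.25, adjusted p = 0.00524) in double mutant against itr-1. Its neighbour nhr-235 (12640670 to 12642917) went from 3.43 ± 0.722 TPM in N2 to 1.95 ± 0.0893 in itr-1, 0.284 ± 0.056 in nuo-6 and 0.245 ± 0.032 in the double mutant. The log2 folds of nhr-235 in those comparisons were -1.77 ± 0.12, -0.57 ± 0.12 and -1.24 ± 0.12. In itr-1 against N2 the falls of nhr-234 and nhr-235 did not pass without all libraries numbered 2 (adjusted p = 0.0525 and 0.0588), which was tried only after the values were known. The 6 named falls in itr-1 against N2 (nhr-68, nhr-234, nhr-137, nhr-235, nhr-101 and nhr-105) all lost their calls with the stage score in the model. Over all genes that model took the falls from 1696 to 531. Of the named falls, nhr-137 read 8.97 ± 2.46 TPM in N2, 4.12 ± 0.588 in itr-1, 18.6 ± 1.97 in nuo-6 and 13 ± 1.59 in the double mutant, and nhr-105 fell by 0.36 (SE 0.09). In double mutant against itr-1 the other falls were nhr-99 (-0.60 ± 0.16, adjusted p = 0.0112) and nhr-74 (-0.56 ± 0.19, adjusted p = 0.0354), and the second was lost without itr-1 replicate 1 (adjusted p = 0.127) or without double-mutant replicate 1 (0.0996) or 2 (0.09).

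By level, the family was led by nhr-97 at 75.1 TPM over all libraries, nhr-49 at 48.7, nhr-31 at 30.9, nhr-10 at 30.5, nhr-23 at 26.4 and nhr-61 at 26.2. The gene nhr-97 read 54.9, 52.9 and 51.6 TPM in N2, 77.2, 60 and 72.1 in itr-1, 77.3, 72.9 and 78.8 in nuo-6, and 102, 92.5 and 109 in the double mutant. N2 lay lowest and the double mutant highest, with the single mutants overlapping. All 4 folds of nhr-97 passed, at 0.51, 0.38, 0.40 and 0.54 (SE 0.09 each), in the order given for nhr-45. Its calls in itr-1 against N2 and in double mutant against nuo-6 were lost under median-of-ratios scaling (adjusted p = 0.116 and 0.0526), and the second also without nuo-6 replicate 2 (0.0551) or double-mutant replicate 1 (0.0506) or 3 (0.0543).

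Members lay mostly on chromosome V, 115 of 186 (61.8%, against 20.2% of all genes tested). In nuo-6 against N2, 83 of these 115 rose and 0 fell (72.2%), beside 43% of all tested genes on that chromosome, and 40 of 71 on the other chromosomes rose (56.3%, beside 35.8%). In double mutant against itr-1 the shares were 76.5% and 47.9%, beside 34.8% and 27.9% of all genes. In itr-1 against N2 they were 31.3% and 39.4%, beside 30.2% and 28.7%. The difference between chromosomes was not tested. In all, 97 members formed 69 pairs of neighbours with at most 5 kb between them, and in 36 pairs both rose in nuo-6 against N2. With 66.1% of all members rising, many pairs would both rise without any link between neighbours, which was not tested. Neighbours of one ancestry can share sequence, and how reads matching several genes were counted is not given, so single genes in such runs are uncertain. The longest of 8 runs of 4 or more held 9 members (nhr-133 to nhr-96, chromosome V, 2210510 to 2235180), of which 8 rose in nuo-6 against N2, 9 in double mutant against itr-1, and 1 in each comparison of itr-1. In the run nhr-59 to nhr-226 (2276013 to 2296977) all 6 rose in nuo-6 against N2, and in the run nhr-178 to nhr-238 (1603906 to 1629432) 6 of 7 did, including nhr-117, whose call ended with the replicate block in the model (adjusted p = 0.0628). In the other 5 runs 2 of 4, 3 of 5, 4 of 7, 4 of 7 and 5 of 7 rose in that comparison, beside 66.1% of all members. In all, 39 members overlapped another protein-coding gene, 29 of them one on the opposite strand.

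**Figure D5:**
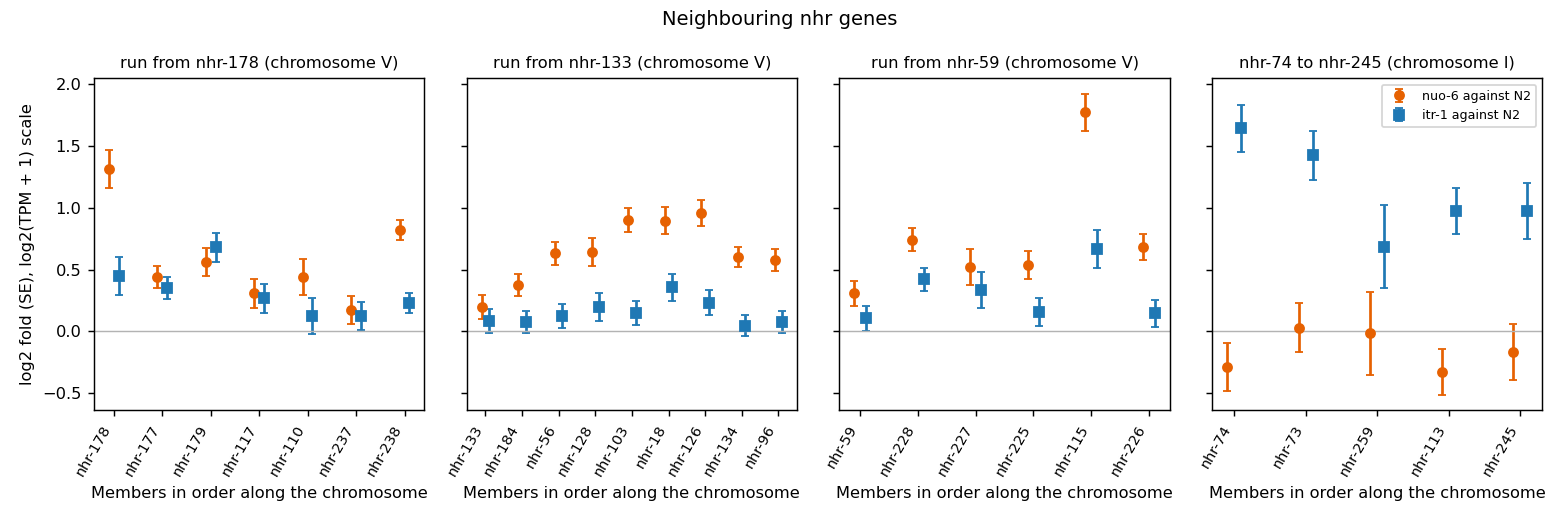
Log2 fold with SE (log2(TPM + 1) scale) of neighbouring members in their order along the chromosome, for nuo-6 against N2 (circles) and itr-1 against N2 (squares), in the 3 runs on chromosome V with the most rises in nuo-6 against N2 and the stretch nhr-74 to nhr-245 on chromosome I, where nhr-259 and nhr-113 are more than 5 kb apart. In the runs on chromosome V all circles lie above 0, and on chromosome I the squares lie above and the circles around or below 0.

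The interaction asks whether the nuo-6 effect differs with and without the itr-1 mutation. At an unadjusted p under 0.05 there were 22 members, a count not made over all genes and so without a background. By adjusted p, 3 of the 186 members had a positive and 1 a negative interaction, beside 3.69% and 8.32% of all genes (12% either way). The negative one was nhr-155 at -2.16 ± 0.18 (adjusted p = 4.95e-05), which passed under every alternative. The positive ones were nhr-234 at 1.83 ± 0.36 (adjusted p = 0.0103), nhr-68 at 1.08 ± 0.28 (adjusted p = 0.0325) and nhr-232 at 0.49 ± 0.14 (adjusted p = 0.0484). The level of nhr-232 was 5.32 ± 0.79 TPM in N2, 5.1 ± 0.119 in itr-1, 6.14 ± 0.336 in nuo-6 and 8.72 ± 0.703 in the double mutant. The interaction of nhr-234 was lost with the stage score in the model (adjusted p = 0.0815) and without all libraries numbered 2 (0.0628). That of nhr-68 was lost with the stage score (0.23) and without replicate 1 or 3 of N2, 2 or 3 of itr-1 or of nuo-6, or 1 of the double mutant (adjusted p = 0.0504 to 0.079). That of nhr-232 was lost with the stage score (0.14), the replicate block (0.053), a pseudocount of 0.1 (0.0503), no filter (0.0705), without all libraries numbered 2 (0.11) and without any 1 library other than double-mutant replicate 2 (adjusted p = 0.0586 to 0.113).

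The partners of the receptors were read from further lists. Of 8 cofactor genes, 3 rose in each single mutant against N2, 4 in each comparison with the double mutant, and 0 fell. Of all genes 37.3% rose in nuo-6 and 29.0% in itr-1 against N2, and 9.99% and 29.3% in the double mutant against nuo-6 and against itr-1, so the counts in the single mutants lay near the background. With median-of-ratios scaling 0 rose in nuo-6 against N2 and 1 in itr-1 against N2. Mediator subunit gene mdt-15, whose product binds NHR-49, stood at 38.2 ± 3.01, 49.3 ± 1.41, 45.8 ± 1.26 and 54 ± 2.05 TPM in N2, itr-1, nuo-6 and the double mutant (0.36 ± 0.06 and 0.26 ± 0.06 for itr-1 and nuo-6 against N2). Of 5 receptors without the nhr name 2 were tested, and both rose in nuo-6 against N2, as did 37.3% of all genes. They were daf-12, the receptor of the dafachronic acids, at 9.31 ± 0.0372, 10.8 ± 1.48, 14.2 ± 1.29 and 17.8 ± 2.31 TPM (0.55 ± 0.11 in nuo-6 against N2), and sex-1 (0.36 ± 0.13). Of 7 tested genes of dafachronic acid synthesis and sterol transport, 3 rose and 2 fell in nuo-6 against N2, 2 and 1 in itr-1 against N2, 0 and 0 in double mutant against nuo-6, and 4 and 1 in double mutant against itr-1 (medians 0.15, -0.15, 0.13 and 0.39). Of all genes 37.3%, 29.0%, 9.99% and 29.3% rose in these comparisons and 15%, 11.1%, 5.46% and 16.4% fell. The cytochrome P450 gene daf-9, which makes the DAF-12 ligand, read 1.36 ± 0.232 TPM in N2, 3.4 ± 0.826 in itr-1, 3.67 ± 0.722 in nuo-6 and 6.8 ± 2.29 in the double mutant, and rose by 0.97 ± 0.22 in nuo-6 and 0.89 ± 0.22 in itr-1 against N2. In nuo-6 against N2 the sterol transport gene ncr-1 rose by 0.64 ± 0.10, and its paralogue ncr-2 fell by 0.44 (SE 0.14).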

How the data were processed

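Polyadenylated RNA of whole L4 larvae was sequenced from 12 stranded libraries, 3 per strain. RNA had an integrity number of 10, per the labels' protocols. The authors deposited TPM, which sums to the same total in every library. Per the submitters' processing notes the genome build was WBcel235. Which aligner and counter were used, and whether counting used strand, is not given in the sources used here. Names, positions and overlaps came from the WBcel235 annotation of Ensembl (release 115), where each of the 46926 gene identifiers was found. TPM keeps no depth, so 3 libraries per strain set the precision, and p-values measure the spread between these cultures.

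Genes reaching 1 TPM in 3 or more libraries (15230) were fitted as log2(TPM + 1) over all 12 libraries. The fit used limma 3.58.1 under R 4.3.3, with trended eBayes at 8 residual and 2.85 prior degrees of freedom, and was tested on simulated data. The 4 comparisons of strains and the interaction were drawn, each adjusted by Benjamini-Hochberg over all genes, with a threshold of 0.05. Members, lists and tests were chosen with earlier results of these data known. Named were listed members of known role, per comparison the 6 largest rises and 6 largest falls among called members with at least 2 TPM in the higher strain, the 6 members with the highest level, the 4 called in all of the first 4 comparisons with the widest summed folds, and up to 4 genes of each other list. Genes outside this rule are nhr-216, nhr-259 and nhr-270 at the minimum, nhr-117 for its lost call, and nhr-133, nhr-96, nhr-59, nhr-226 and nhr-238 as ends of runs, all chosen after their values were seen.

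Same-numbered libraries of nuo-6 and N2 had correlations of 0.112, 0.16 and 0.116 in their deviations. In every other comparison at least 1 same-numbered pair was at 0.1 or below. Over all strains 11 of 18 same-numbered pairs lay above 0.1, and so did 7 of 36 pairs of different numbers. The labels give no pairing, and whether the numbers mark one was not tested. With the replicate block, 127 members changed in nuo-6 against N2 instead of 126. Libraries numbered 2 correlated in every pair of strains, at 0.118 to 0.506, where libraries of different numbers spanned -0.474 to 0.293. They also had the highest stage score of their strain (4.52 in N2, 6.42 in itr-1, 5.17 in nuo-6 and 6.11 in the double mutant). What they share was not tested. Alternatives were quantile normalization, median-of-ratios scaling, pseudocounts of 0.1 and 0.5, no filter, a minimum of 5 TPM, only the groups compared, the replicate block, the oocyte stage score as a covariate, and the omission of each library. The omission of all libraries numbered 2 was added after the data were seen. Plots were drawn with matplotlib 3.10.9 (Python 3.11.15, numpy 2.4.6, pandas 2.3.3). No sequence table or genome was used.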

Additional observations from a re-analysis of the deposited data

Results flagged for a closer look

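By limma's interaction test, adjusted over all genes, the effect of nuo-6 differed between the wild-type and the itr-1 background for 1829 of the 15230 genes. Among receptors these were nhr-155 (-2.16, adjusted p = 4.95e-05), nhr-234 (1.83, adjusted p = 0.0103), nhr-68 (1.08, adjusted p = 0.0325) and nhr-232 (0.49, adjusted p = 0.0484). A positive value means that nuo-6 raised the gene more, or lowered it less, in the itr-1 background. Of 5 propionate-shunt genes 3 shared the direction of nhr-68, namely acdh-1 (2.18, adjusted p = 0.013), hphd-1 (1.13, adjusted p = 0.00828) and alh-8 (0.55, adjusted p = 0.00248). Of all genes 3.69% had a positive and 8.32% a negative interaction. Of 10 NHR-49 targets, fat-5 (-2.19, adjusted p = 0.0181), fat-7 (-0.99, adjusted p = 0.0241) and lbp-8 (1.56, adjusted p = 0.0207) differed. Of 9 moulting genes, mlt-7 (-1.26, adjusted p = 0.000467) and nas-36 (-0.85, adjusted p = 0.0125) did. Of 15 oocyte genes perm-4 differed (-2.49, adjusted p = 0.035), and of 4 intestinal genes ifb-2 (-0.53, adjusted p = 0.012) and ges-1 (0.51, adjusted p = 0.049). The moulting score, the mean log2(TPM + 1) of the 9 listed genes, was 6.51 to 6.67 in N2 and 5.83 to 6.38 in the mutant libraries, and its part in these values was not tested.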

How the results depend on the processing

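Counts of changed members in double mutant against itr-1 stayed within 1.5 times of the 126 reported under every alternative. In nuo-6 against N2 the exception was quantile normalization (71, with 60 rises and 11 falls). In itr-1 against N2 (71 reported) median-of-ratios scaling gave 43, quantile normalization 35 and the stage score 31. In double mutant against nuo-6 (42 reported) they gave 18, 21 and 68, and the omission of all libraries numbered 2 gave 25. For the interaction (4 reported) they gave 8, 12 and 1. Leaving out 1 library at a time gave 105 to 115, 44 to 66, 12 to 49, 105 to 129 and 2 to 6 members, in the order of nuo-6 and itr-1 against N2, the double mutant against nuo-6 and against itr-1, and the interaction. The count in itr-1 against N2 was 44 without N2 replicate 3. In double mutant against nuo-6 it was 16 and 14 without nuo-6 replicate 2 and 3, and 12 and 14 without double-mutant replicate 1 and 3. The interaction fell to 2 members without N2 replicate 1, itr-1 replicate 3, nuo-6 replicate 2 or 3, or double-mutant replicate 1. With the replicate block the counts were 127, 70, 40, 125 and 9 in that order, and of same-numbered pairs 11 of 18 correlated above 0.1. The fold of nhr-13 in itr-1 against N2 changed sign after quantile normalization (-0.0044). Of 2617 values of named genes under alternatives, 2356 kept their side of the threshold, 232 lost the call and 28 gained it. Among the 2356, a fold that changed sign counted as kept if it passed in neither fit. Over all 186 members, quantile normalization changed the sign of 2 called folds in nuo-6 against N2 and of 2 in itr-1 against N2. Members called under every alternative except the omission of all libraries numbered 2, where tested, numbered 62 of 126, 10 of 71, 10 of 42, 92 of 126 and 1 of 4. That count was not made over all genes, whose calls also moved. With the stage score, itr-1 against N2 went from 4413 rises and 1696 falls of all genes to 1421 and 531. Without double-mutant replicate 1, double mutant against nuo-6 went from 1522 and 831 to 732 and 537. The cause of these shifts was not tested. Depth is unknown, and a filter of 5 TPM left 125 members.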
